A study of Danio rerio and Oryzias latipes with 22 samples.

Results

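The comparison described here sets the zebrafish heart at 14 days post-injury (d.p.i.) against the heart at 3 d.p.i. It holds 9 of the 22 samples of the series, 6 ventricle samples taken 14 days after injury against 3 taken after 3 days, chosen by their labels alone. All 9 came from wild-type Tübingen fish of 6 to 18 months of age whose ventricle apex had been frozen with a cooled metal probe (cryoinjury). The whole ventricle was dissociated into single cells and profiled by 10x Genomics single-cell RNA sequencing, which tags every captured mRNA with a cell barcode and a unique molecular identifier (UMI). The series as a whole asked how the injury response of the zebrafish, which regenerates its heart, differs from that of the medaka, which does not. The question of this comparison is what had resolved and what had begun between the early and the later stage.

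A cryoinjured zebrafish ventricle first fills with debris, clot and inflammatory cells, while cells of its outer layer, the epicardium, and of its inner lining, the endocardium, are activated, divide and secrete a temporary matrix. In the course of repair the new epicardium lays down a basement membrane and vessels regrow rapidly. Cardiomyocytes near the wound divide and replace the lost muscle as the scar is cleared. Secretion and division depend on machinery that all cells share, such as the chaperones of the endoplasmic reticulum (ER), which fold new proteins, the proteasome, which degrades used and misfolded ones, and the proteins that copy DNA and separate chromosomes.

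In the 9 samples 34542 of 56385 barcodes passed the filters of at least 200 genes and at most 40% mitochondrial UMIs, 24408 at 14 d.p.i., against 10134 at 3 d.p.i. The UMIs that entered the sums lay between 5005382 and 43908442 per sample at 14 d.p.i. and between 19731360 and 27782740 at 3 d.p.i. Any pair of samples shared at most 10 barcodes. Libraries differed widely in red blood cells. Barcodes with over 20% of their UMIs in haemoglobin genes made up 0.644% to 22.1% of the barcodes at 14 d.p.i., highest in replicate 6, and 10.0%, 33.5% and 61.5% in 3 d.p.i. replicates 1 to 3. The summed level of 8 erythroid markers overlapped between the groups, with 2981 to 140681 CPM at 14 d.p.i. and 17657 to 154652 CPM at 3 d.p.i. CPM are UMIs per 1000000 summed UMIs, scaled by the TMM factor of each sample. That of the cardiomyocyte markers overlapped as well, with 16761 to 49325 CPM at 14 d.p.i. and 12312 to 22334 CPM at 3 d.p.i. Replicate 1 at 14 d.p.i. was rich in granulocytes, and 63 keratinocyte-like cells came from 14 d.p.i. replicate 5 alone.

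Across the whole ventricle far more genes were lower at 14 d.p.i. than higher. The UMIs of each sample were summed over its barcodes and tested with edgeR, and a gene was called at a Benjamini-Hochberg adjusted p under 0.05. Of 18742 genes tested, 783 (4.18%) were lower at 14 d.p.i. and 254 (1.36%) were higher. Falls were also larger, with 251 genes lower by more than 2 on the log2 scale and 50 higher by more than 2. The median log2 change over all genes was 0.09. In 1674 genes (8.93%) every 14 d.p.i. sample lay below every 3 d.p.i. sample, and in 1152 (6.15%) every one lay above. In such sums, fewer cells of a type and less RNA per cell cannot be told apart.

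The number of calls rested on the 3 d.p.i. libraries. Without 3 d.p.i. replicate 1 there were 516 lower and 77 higher genes, without replicate 2 there were 159 and 13, and without replicate 3 there were 123 and 5. Leaving out 14 d.p.i. replicate 2 gave 435 and 98, and leaving out 14 d.p.i. replicate 3 gave 449 and 103. The libraries with the highest haemoglobin share of UMIs, 14 d.p.i. replicate 6 (12.9%) and 3 d.p.i. replicate 3 (15.6%), are called erythroid-rich here. With 6.26%, 3 d.p.i. replicate 2 was not among them, although it had a larger share of haemoglobin-rich barcodes than 14 d.p.i. replicate 6. Without both erythroid-rich libraries, 1 gene was lower, *adamtsl7*, and 1 was higher, the locus *LOC103909969*, both named after their values were seen. When single barcodes rich in haemoglobin were left out instead and all libraries stayed, 1073 genes were lower and 295 higher. Scaling to total counts in place of TMM gave 1015 lower and 142 higher genes, and DESeq2 gave 1435 and 1172. Of the 111 called genes considered by name, 30 kept the call whichever single library was left out. Most of these 30 are named in the paragraphs that follow.

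Genes of the secretory pathway were among those that fell. The list named after the ER chaperones also held stress factor genes such as *xbp1* and *ddit3* and protein import genes such as *sec61b*. Of its 30 genes 17 were lower at 14 d.p.i. and none was higher, against 4.18% of all genes lower, and the median log2 change of the list was -1.33. The protein disulphide isomerase gene *pdia4* had 10.7 to 15 CPM at 14 d.p.i. (median 13.5), against 34, 57.8 and 51.8 CPM in 3 d.p.i. replicates 1, 2 and 3. The ranges of the groups lay apart, and the gene fell with a log2 change of -1.86 ± 0.19 (SE, n = 6 and 3, edgeR adjusted p = 0.00336). All 3 calreticulin genes of the list, which encode chaperones of glycoproteins, fell as well. The level of *calr* was 8.70 to 13.3 CPM at 14 d.p.i. and 28.3, 42.2 and 41.8 CPM at 3 d.p.i., and that of *calr3b* was 22.2 to 38.1 CPM at 14 d.p.i. and 105, 158 and 116 CPM at 3 d.p.i. Their log2 changes were -1.80 ± 0.20 and -2.02 ± 0.22, and that of *calr3a* was -1.42 ± 0.19. The ER folding factor *hyou1* (log2 change -1.46 ± 0.16) and the calcium-binding *calua* (-2.06 ± 0.30) fell in the same way, each with no overlap between the groups.

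Outside the lists, 3 further genes with a part in secretion were lower. For *pmm2*, which makes the mannose donor of glycosylation, the range was 2.32 to 4.11 CPM at 14 d.p.i., against 13.8, 34.8 and 23.2 CPM at 3 d.p.i. (log2 change -2.90 ± 0.29, edgeR adjusted p = 0.00336). The oligosaccharyltransferase subunit gene *ddost* had 18.1 to 29.7 CPM at 14 d.p.i. and 66.8, 107 and 94.1 CPM at 3 d.p.i. (-1.97 ± 0.21). The growth factor gene *mydgf*, known from mammals as a factor of myeloid cells that acts on the infarcted heart, had 6.53 to 10.2 CPM at 14 d.p.i. and 28.1, 54.3 and 45.0 CPM at 3 d.p.i. (-2.33 ± 0.22). In none of these 3 genes did a 14 d.p.i. sample reach a 3 d.p.i. sample. The ER chaperone list kept 15 lower members without 3 d.p.i. replicate 2, 13 without replicate 3 and 0 without both erythroid-rich libraries, where its median was still negative. The summed level of the list, which a few abundant members dominate, overlapped between the groups, with 2934 to 4510 CPM at 14 d.p.i. and 3649 to 5520 CPM at 3 d.p.i.

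Most genes of the proteasome list fell. The list was drawn by symbol (*psma* to *psmg*), which covers the subunits and also admits genes of activators and assembly factors. Of its 54 genes 40 were lower at 14 d.p.i. and none was higher, against 4.18% of all genes lower, with a median log2 change of -1.06. In 46 of the 54 the groups lay apart, against 8.93% of all genes. The catalytic subunit gene *psmb5* was uniform within each group, with 21.6 to 29.4 CPM at 14 d.p.i. (median 24.8) and 61.5, 61.6 and 62.4 CPM at 3 d.p.i. The log2 change was -1.28 ± 0.15 (edgeR adjusted p = 0.00431). The ring subunit gene *psma2* had 34 to 53.3 CPM at 14 d.p.i. and 108.8, 113 and 109.6 CPM at 3 d.p.i. (-1.35 ± 0.17), and the ATPase subunit genes *psmc1a* and *psmc3*, which unfold the substrates, changed by -1.36 ± 0.17 and -1.10 ± 0.14. Summed over the list, the level was 1600 to 2186 CPM at 14 d.p.i. and 3529 to 4136 CPM at 3 d.p.i., with no overlap. Without 3 d.p.i. replicate 1 there were 32 lower members, without replicate 2 there were 15, without replicate 3 there were 14, and without both erythroid-rich libraries there were none, while the median stayed between -1.15 and -0.98 under all 19 settings. *vcp*, which extracts proteins for the proteasome, had a log2 change of -0.90 ± 0.19, and its cofactor *nsfl1c* one of -1.26 ± 0.21, and both had no call without 3 d.p.i. replicate 2 or 3, *vcp* also none without 3 d.p.i. replicate 1 or 14 d.p.i. replicate 2 or 3 (edgeR adjusted p up to 0.116 and 0.0720).

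Among the 35 gene lists the cell cycle genes had the lowest median change. Of 34 cell cycle genes 22 were lower at 14 d.p.i. and none was higher, against 4.18% of all genes lower, with a median log2 change of -2.38. In 30 of them the groups lay apart, against 8.93% of all genes. The clamp of the DNA polymerases, *pcna*, had 13.1 to 26.3 CPM at 14 d.p.i. (median 18.8), against 64.3, 63.8 and 103.1 CPM at 3 d.p.i. (log2 change -2.02 ± 0.26, edgeR adjusted p = 0.00531). The kinase subunit gene *cks1b* had 2.57 to 5.26 CPM at 14 d.p.i. and 19.4, 24.5 and 25.3 CPM at 3 d.p.i. (-2.71 ± 0.24). Both genes, like the histone chaperone gene *asf1ba* (-3.04 ± 0.31) and the thymidylate synthase gene *tyms* (-2.98 ± 0.42), had no overlap between the groups. Other replication and mitosis genes were lower too, among them *mcm2* (-2.51 ± 0.39), the mitotic kinase gene *plk1* (-2.64 ± 0.46), *ube2c* (-2.41 ± 0.39), which helps to degrade the cyclins, and the nucleotide reductase subunit gene *rrm2* (-3.03 ± 0.64). These 4 calls were lost without 3 d.p.i. replicate 3, and those of all but *mcm2* also without replicate 2, with edgeR adjusted p up to 0.0592, 0.0700, 0.0578 and 0.149, and the call of *rrm2* also without 14 d.p.i. replicate 2 or 3. The summed level of the list was 460 to 702 CPM at 14 d.p.i. and 1088 to 1342 CPM at 3 d.p.i. The residue at 14 d.p.i. was uneven, since replicate 4 was the highest 14 d.p.i. sample in 22 of the 34 genes. The count of lower members was 14 without 3 d.p.i. replicate 1 and 14 without 14 d.p.i. replicate 2, 5 without 3 d.p.i. replicate 2, 2 without replicate 3 and 0 without both erythroid-rich libraries, and the median lay between -2.63 and -2.12 in all 19 settings.

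**Figure D1:**
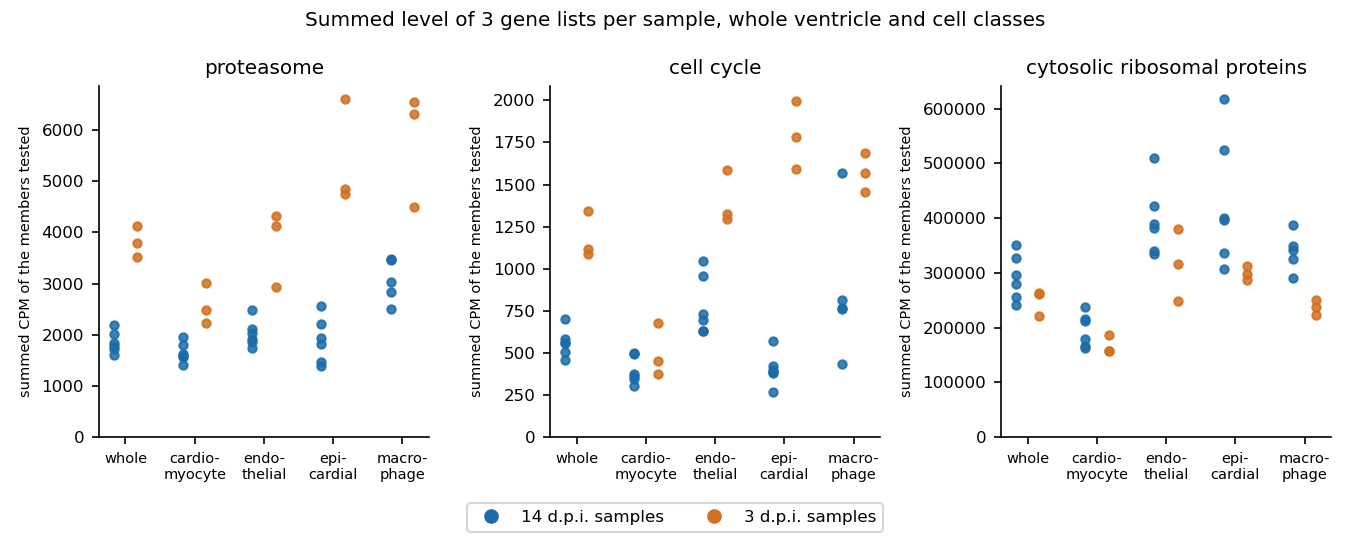
Summed CPM of the proteasome, cell cycle and ribosomal protein lists (the last with its kinases) in each sample, for the whole ventricle and the 4 cell classes, with 14 d.p.i. samples left of 3 d.p.i. samples and 1 point per sample. The proteasome sum lies lower at 14 d.p.i. without overlap in the whole ventricle and in all 4 classes, at 1600 to 2186 CPM against 3529 to 4136 CPM in the whole ventricle.

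Several further genes with separate groups fell, which form no list of their own. The gene *phgdh*, the first enzyme of serine synthesis, was nearly absent at 14 d.p.i., with 0 to 0.550 CPM (median 0.152), and had 7.39, 10.5 and 8.28 CPM at 3 d.p.i. The log2 change was -5.12 ± 0.59 (edgeR adjusted p = 0.00381). The fatty acid binding protein gene *fabp7a* had 0.0829 to 0.681 CPM at 14 d.p.i. and 5.24, 8.75 and 4.49 CPM at 3 d.p.i. (-4.12 ± 0.56). Both had separate ranges, as did the antioxidant *prdx6* (-1.56 ± 0.22), the cysteinyl-tRNA synthetase gene *cars* (-1.62 ± 0.16), *eef1e1* (-1.71 ± 0.18), a part of the complex of such synthetases, the translation factor gene *eif5a2* (-1.27 ± 0.17), *glod5* (-1.95 ± 0.18) and *scamp4* (-1.58 ± 0.16), a membrane protein of secretory carriers. The neural adhesion gene *cntn1a* had 0.264 to 0.719 CPM at 14 d.p.i. and 2.74, 5.99 and 17.8 CPM at 3 d.p.i. (-4.30 ± 0.54). Of the 32 ribosome biogenesis genes 5 were lower, with a median of -0.32, among them the pseudouridine synthase gene *dkc1* (-1.20 ± 0.21), whose call was lost without 3 d.p.i. replicate 2 or 3 (adjusted p up to 0.0750). The glycolysis list had 1 lower member of 31, a share under the 4.18% of all genes, with a median of -0.10, *gapdhs* (-1.62 ± 0.29), also lost without 3 d.p.i. replicate 2 or 3 (adjusted p up to 0.0862).

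**Figure D2:**
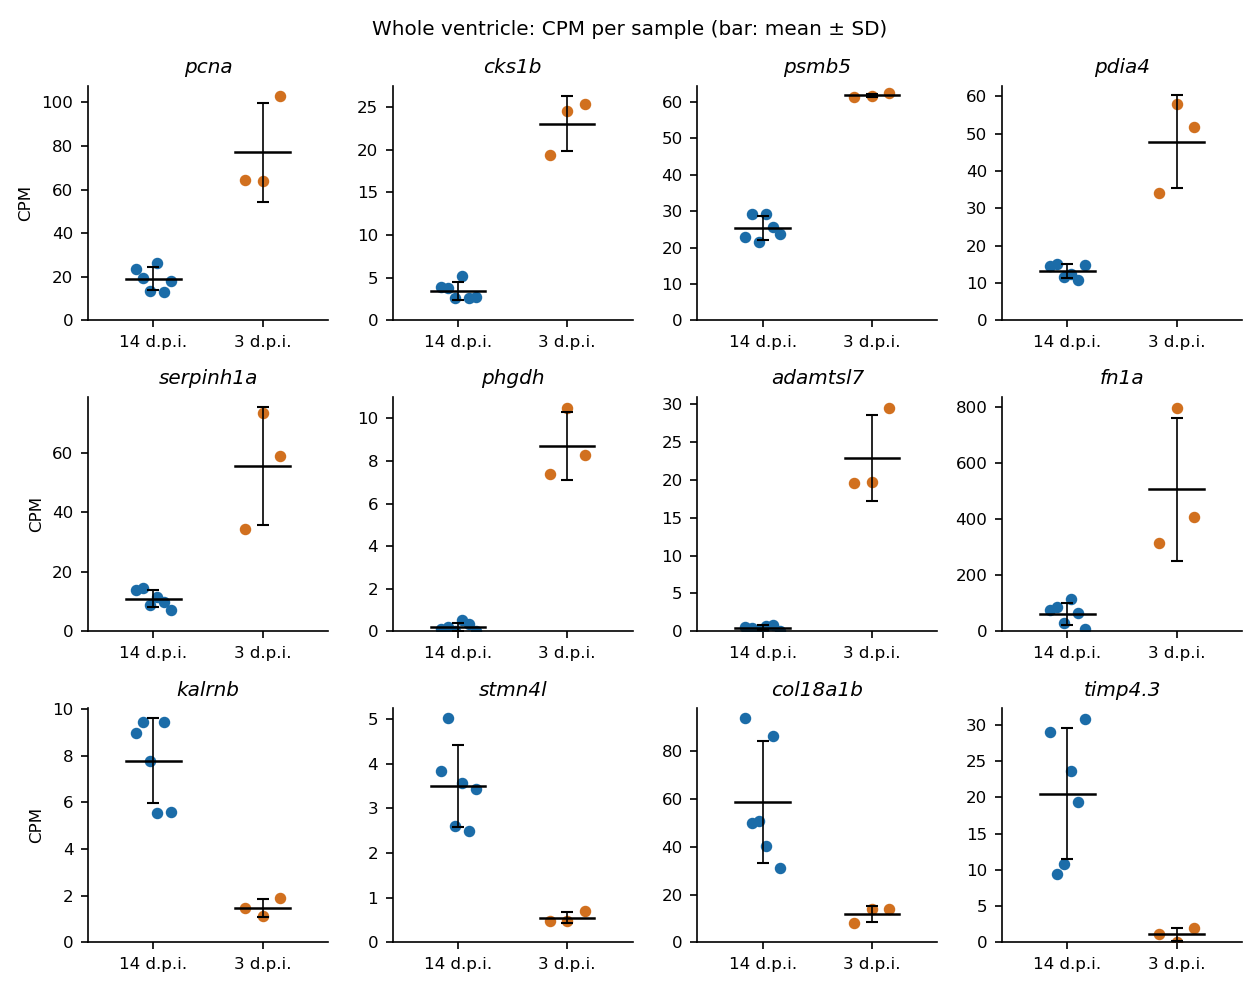
CPM of 12 genes in each ventricle sample, with 14 d.p.i. samples left of 3 d.p.i. samples, 1 point per sample, and bars for mean ± SD (n = 6 and 3). For *pcna* the 14 d.p.i. samples lie between 13.1 and 26.3 CPM, below all 3 d.p.i. samples, and for *kalrnb* they lie between 5.55 and 9.44 CPM, above all of them.

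Some genes of the early matrix were lower. One of these was *adamtsl7*, a secreted matrix protein gene of the ADAMTS-like family, which had 0 to 0.857 CPM at 14 d.p.i. (median 0.507), against 19.5, 19.8 and 29.4 CPM at 3 d.p.i. It fell with a log2 change of -5.52 ± 0.49 (edgeR adjusted p = 0.00336) and also kept its call without both erythroid-rich libraries. The collagen chaperone gene *serpinh1a* had 7.10 to 14.5 CPM at 14 d.p.i. and 34.4, 73.5 and 58.9 CPM at 3 d.p.i. (-2.33 ± 0.27). It was followed by the collagen lysyl hydroxylase genes *plod2* (-1.88 ± 0.28), without a call when 3 d.p.i. replicate 3 was left out (adjusted p = 0.0531), and *plod3* (-1.06 ± 0.21), without one when 14 d.p.i. replicate 3 or 3 d.p.i. replicate 2 or 3 was left out (adjusted p up to 0.113).

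Single genes of the matricellular list, for a fibronectin and for synthases of hyaluronan, which are components of provisional matrix, were also lower. They do not stand for the list, whose count in the whole ventricle is not given. In epicardial-like cells more of its members were higher than lower. For *fn1a* the range was 7.53 to 115 CPM at 14 d.p.i. (median 71.3), against 314, 797 and 410 CPM at 3 d.p.i., and the log2 change was -2.99 ± 0.64 (edgeR adjusted p = 0.0286). The hyaluronan synthase gene *has1* had 0 to 1.06 CPM at 14 d.p.i. and 1.63, 7.81 and 12.7 CPM at 3 d.p.i. (-3.85 ± 0.71), and *has2* had 0.645 to 5.27 CPM at 14 d.p.i. and 6.38, 16 and 9.37 CPM at 3 d.p.i. (-2.04 ± 0.47). In all 3 the groups did not overlap. The protease inhibitor gene *timp2b* was lower by the same measure (-2.69 ± 0.52), and so was the protease gene *mmp11b* (-2.09 ± 0.49), whose ranges overlapped. The calls of *has1* and *timp2b* were lost without 3 d.p.i. replicate 2 or 3 (adjusted p up to 0.111 and 0.0886), that of *fn1a* also without 14 d.p.i. replicate 2 or 3 (up to 0.133), that of *has2* without any library but 14 d.p.i. replicates 5 and 6 (up to 0.191), and that of *mmp11b* without any but 14 d.p.i. replicate 4 and 3 d.p.i. replicate 2 (up to 0.223).

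Most collagen genes themselves were not called. Of 24 collagen genes, of fibrillar and other types, only *col11a1a* was lower, a share near the 4.18% of all genes. It had 0 to 8.84 CPM at 14 d.p.i. and 10.2, 126 and 33.1 CPM at 3 d.p.i. (log2 change -3.99 ± 0.93, edgeR adjusted p = 0.0380). Its call was lost without any library but 14 d.p.i. replicates 2 and 6 and 3 d.p.i. replicate 1 (up to 0.227). The scar collagen genes of the XII type had separate ranges but wide spreads. For *col12a1a* the values were 7.53 to 133 CPM at 14 d.p.i. and 134, 520 and 326 CPM at 3 d.p.i. (-2.26 ± 0.81, edgeR adjusted p = 0.137), and for *col12a1b* they were 0.645 to 68.3 CPM at 14 d.p.i. and 102, 294 and 249 CPM at 3 d.p.i. (-2.48 ± 0.88, adjusted p = 0.133). *col5a1* (-1.36 ± 0.38, adjusted p = 0.0702) and *col1a2* (-1.16 ± 0.51, adjusted p = 0.212) were not called either. The fibroblast gene *postnb* had 9.68 to 621 CPM at 14 d.p.i. and 55.1, 624.9 and 147 CPM at 3 d.p.i., so that the groups covered almost the same range.

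Some signals of the early wound had gone down. Retinoic acid synthesis by *aldh1a2* is a known response of injured endocardium and epicardium in zebrafish. The gene had 44.7 to 116 CPM at 14 d.p.i. (median 71.5), against 340, 149 and 271 CPM at 3 d.p.i. (log2 change -1.80 ± 0.33, edgeR adjusted p = 0.0175). The prostaglandin synthase gene *ptgs2a* had 5.47 to 13.8 CPM at 14 d.p.i. and 21.1, 37.0 and 92.8 CPM at 3 d.p.i. (-2.62 ± 0.42, adjusted p = 0.0107). Neither gene overlapped between the groups, and the calls were lost without 3 d.p.i. replicate 1 or 3 for *aldh1a2* (adjusted p up to 0.0841) and without replicate 3 for *ptgs2a* (0.0519).

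Of 26 cytokine and inflammation genes 3 were lower and none was higher, against 4.18% of all genes lower, with a median log2 change of -0.39. Besides *ptgs2a* they were *lepb*, a leptin gene induced at wounds in zebrafish, with 0 to 2.2 CPM at 14 d.p.i. and 5.73, 6.12 and 24.6 CPM at 3 d.p.i., and *il11a*, a cytokine gene of the IL-6 family, with 0 to 1.71 CPM at 14 d.p.i. and 4.79, 6.47 and 3.24 CPM at 3 d.p.i. Their log2 changes were -3.81 ± 0.84 and -3.16 ± 0.79, without overlap between the groups. *socs3b*, a feedback inhibitor of such cytokines, changed by -1.48 ± 0.34, and the growth factor gene *igf2b* by -0.93 ± 0.20. All 4 calls were lost without 3 d.p.i. replicate 2 or 3 and without 14 d.p.i. replicate 2, that of *il11a* without every library but 14 d.p.i. replicate 5, that of *lepb* also without 3 d.p.i. replicate 1 and 14 d.p.i. replicate 1, that of *socs3b* without 14 d.p.i. replicate 1 or 6, and that of *igf2b* without 14 d.p.i. replicate 3 or 6 (adjusted p up to 0.202 for *lepb*, 0.188 for *il11a*, 0.180 for *socs3b* and 0.165 for *igf2b*). The neutrophil attractant gene *cxcl8a* had 0.215 to 28.9 CPM at 14 d.p.i. and 25.3, 34.3 and 54.3 CPM at 3 d.p.i., which overlapped and was not called (edgeR adjusted p = 0.229).

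Other early genes were transcription factors. The AP-1 factor gene *fosl1a* had 3.08 to 9.43 CPM at 14 d.p.i. and 11.8, 16.3 and 37.7 CPM at 3 d.p.i. (log2 change -1.97 ± 0.41), and the epicardial factor gene *wt1b* had 1.08 to 5.63 CPM at 14 d.p.i. and 8.76, 31.1 and 14.5 CPM at 3 d.p.i. (-2.31 ± 0.49). Both fell without overlap. The AP-1 factor gene *junba* fell too (-1.64 ± 0.41), but its ranges overlapped. The calls of *fosl1a* and *wt1b* were lost without 3 d.p.i. replicate 2 or 3 and 14 d.p.i. replicate 2 or 3 (adjusted p up to 0.156 and 0.155), and that of *junba* without any library but 14 d.p.i. replicate 5 and 3 d.p.i. replicate 1 (up to 0.213). Of 12 interferon-stimulated genes only 1, *mxb*, was lower (-3.48 ± 0.86, edgeR adjusted p = 0.0467), against 4.18% of all genes lower. The ranges of *mxb* overlapped, and its call was lost without any library but 14 d.p.i. replicate 5 (up to 0.284). The ubiquitin-like *isg15* had 14.0 to 219 CPM at 14 d.p.i., where replicate 4 was far above the rest, and 140, 217 and 69.6 CPM at 3 d.p.i., and was not called.

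Among the higher genes considered by name, 2 kept the call whichever single library was left out. The gene *kalrnb* encodes a kalirin, a guanine nucleotide exchange factor. It rose to 5.55 to 9.44 CPM at 14 d.p.i. (median 8.39), against 1.47, 1.12 and 1.89 CPM at 3 d.p.i., with a log2 change of 2.39 ± 0.29 (edgeR adjusted p = 0.00497). The stathmin-like *stmn4l*, of a family that destabilizes microtubules, rose to 2.51 to 5.02 CPM at 14 d.p.i., against 0.488, 0.474 and 0.698 CPM at 3 d.p.i. (2.65 ± 0.34, adjusted p = 0.00531). Neither gene overlapped between the groups.

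Basement membrane and matrix remodelling genes were among the others that rose. The basement membrane collagen gene *col18a1b* had 31.0 to 93.9 CPM at 14 d.p.i. (median 50.3), against 7.95, 13.9 and 14.0 CPM at 3 d.p.i. (log2 change 2.30 ± 0.41, edgeR adjusted p = 0.0159). Also separate was *col4a2*, another basement membrane chain, with 57.0 to 215 CPM at 14 d.p.i. and 35.7, 35.9 and 23.6 CPM at 3 d.p.i. (1.71 ± 0.43, adjusted p = 0.0484). These 2 were the only higher members of the 24 collagens, against 1.36% of all genes higher. Of the 25 proteases and inhibitors 2 were higher and 2 lower, against 1.36% of all genes higher and 4.18% lower. The metalloproteinase inhibitor gene *timp4.3* had 9.48 to 30.8 CPM at 14 d.p.i. and 1.21, 0.0862 and 1.99 CPM at 3 d.p.i. (4.22 ± 0.79), and *adamts5*, a protease that cuts versican, had a log2 change of 1.52 ± 0.37. The inhibitor of membrane serine proteases *spint2* had 14.3 to 54.0 CPM at 14 d.p.i. and 4.82, 3.58 and 4.29 CPM at 3 d.p.i. (2.62 ± 0.45). Without 3 d.p.i. replicate 3 none of these 5 genes was called, nor were *col18a1b*, *timp4.3*, *col4a2* and *adamts5* without 3 d.p.i. replicate 1 (adjusted p up to 0.0790, 0.0623, 0.215 and 0.205, and 0.0804 for *spint2*). The calls of *col18a1b*, *col4a2*, *adamts5* and *spint2* were also lost without 3 d.p.i. replicate 2, and those of *col4a2* and *adamts5* without 14 d.p.i. replicate 2, 3, 5 or 6, that of *adamts5* without 14 d.p.i. replicate 1 too.

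The next 3 higher genes came from different lists, those of growth factors, mural cell genes and integrin subunits. They were named singly and do not stand for these lists. The lymphatic growth factor gene *vegfd* had 2.65 to 7.46 CPM at 14 d.p.i. and 2.44, 1.90 and 1.94 CPM at 3 d.p.i. (log2 change 1.48 ± 0.34), and the mural cell receptor gene *notch3* had 26.0 to 53.8 CPM at 14 d.p.i. and 19, 17.6 and 20.6 CPM at 3 d.p.i. (1.00 ± 0.22). The collagen receptor subunit gene *itga1* rose by a like amount (1.01 ± 0.24). All 3 had separate groups, and all lost the call without any 1 of the 3 d.p.i. libraries or 14 d.p.i. replicate 2, 3 or 6, *vegfd* and *notch3* also without replicate 5, and *vegfd* without replicate 1 (adjusted p up to 0.161, 0.150 and 0.199). No member of the coronary and lymphatic endothelial list was called (26 genes tested, general endothelial ones among them, median 0.56). At an unadjusted p under 0.05 edgeR gave 7 of them a higher and 1 a lower level, and DESeq2 called 4 higher. *apln* had 54.0 to 227 CPM at 14 d.p.i. and 61.8, 48.7 and 54.1 CPM at 3 d.p.i., and *nrg1*, a mitogen of cardiomyocytes, had 1.72 to 4.70 CPM at 14 d.p.i. and 1.69, 1.51 and 2.94 CPM at 3 d.p.i., and both ranges overlapped.

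A further 6 higher genes, which form no list, were among those called with separate groups. The splicing-associated *arglu1b* had 46.9 to 67.1 CPM at 14 d.p.i. and 23.5, 26.4 and 23.7 CPM at 3 d.p.i. (log2 change 1.17 ± 0.17, edgeR adjusted p = 0.00670), and *clk4a*, a kinase of splicing factors, had 55.7 to 79.8 CPM at 14 d.p.i. and 36.4, 37.0 and 34 CPM at 3 d.p.i. (0.93 ± 0.18). The topoisomerase gene *top1* (1.26 ± 0.24), *jade2* (1.23 ± 0.21), *sinhcaf* (1.02 ± 0.17) and *rsl24d1* (1.36 ± 0.21), which acts in ribosome assembly, changed alike. Each lost its call without 3 d.p.i. replicate 3, all but *arglu1b* also without replicate 2, and *clk4a* and *top1* also without replicate 1 (adjusted p between 0.0557 for *arglu1b* and 0.118 for *clk4a*). The entry *mir29b-1*, the gene record of a microRNA, rose with a log2 change of 1.43 ± 0.24, a call lost without 3 d.p.i. replicate 2 or 3 (adjusted p up to 0.0768). Its UMIs come from captured polyadenylated RNA, so the value is no measure of the mature microRNA.

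Several genes with the largest rises were close to the detection limit at 3 d.p.i. The endopeptidase gene *phex* had 403 UMIs over the 14 d.p.i. samples and 6 over the 3 d.p.i. samples. Per summed UMI, without TMM scaling, this was a ratio of 40.5 (exact 95% interval 18.4 to 111). For *mamdc2b* there were 236 UMIs at 14 d.p.i., against 3 at 3 d.p.i. (ratio 47.4, 16 to 231), and for the membrane-tubule protein gene *ehd2a* 77 at 14 d.p.i., against 2 at 3 d.p.i. (ratio 23.2, 6.21 to 195). The intervals cover counting error only. *phex* and *ehd2a* lost their calls without 3 d.p.i. replicate 2 or 3 (adjusted p up to 0.0930 and 0.0605), and *mamdc2b* without any library but 14 d.p.i. replicates 3 and 5 (0.173). The secreted protein gene *vmo1a* was the most abundant of the steep risers, with 8.17 to 136 CPM at 14 d.p.i. (median 89.9) and 5.44, 1.90 and 5.93 CPM at 3 d.p.i. (log2 change 4.07 ± 0.99, edgeR adjusted p = 0.0446), and its call was lost without any library but 14 d.p.i. replicates 4 and 6 (up to 0.178).

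**Figure D3:**
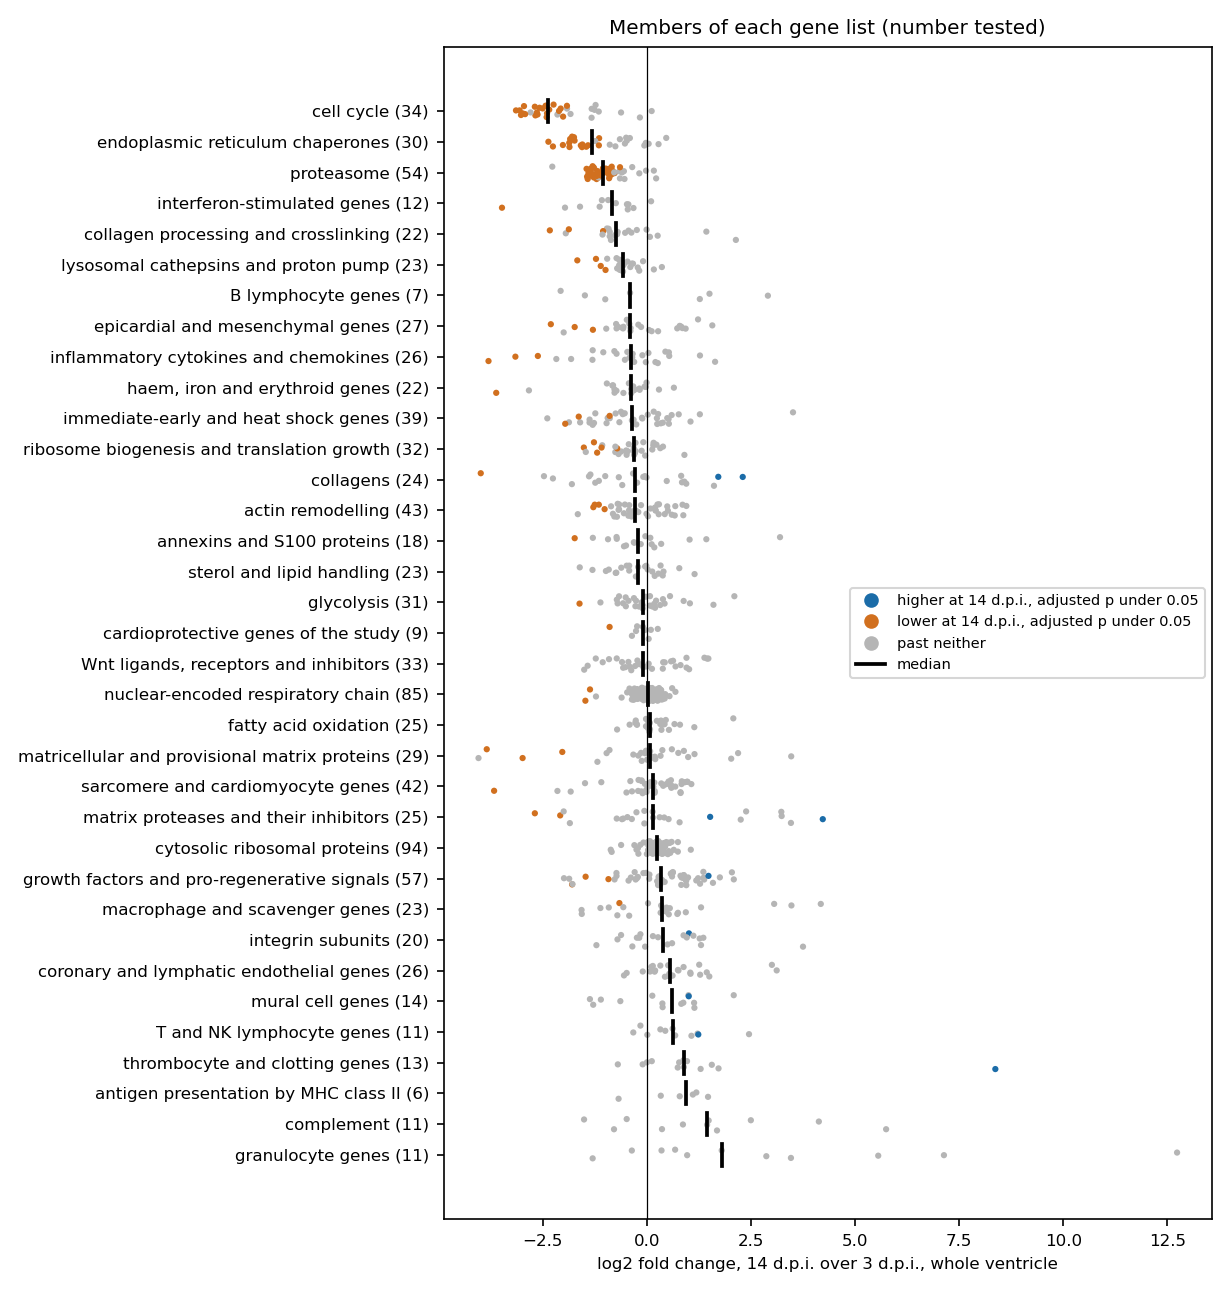
Log2 change at 14 d.p.i. over 3 d.p.i. in the whole ventricle for each member of 35 gene lists, with 1 point per gene, a bar at the median, the number of genes tested beside the name, and called genes in blue (higher) or orange (lower). The cell cycle, ER chaperone and proteasome medians, at -2.38, -1.33 and -1.06, lie below the median of 0.09 over all genes.

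Most of the remaining lists had few calls. None of 11 granulocyte genes was called by edgeR at a median log2 change of 1.79, while 5 were higher at an unadjusted p under 0.05 and 5 with DESeq2. Among them *lyz* had 0.645 to 4416 CPM at 14 d.p.i. and 0.0977, 0.259 and 0 CPM at 3 d.p.i., with replicate 1 supplying the top value. Of 23 lysosome genes 4 were lower (median -0.58), against 4.18% of all genes lower. Among them were the cathepsin genes *ctsla* (-1.67 ± 0.31) and *ctsk* (-1.11 ± 0.26), whose calls were lost without 3 d.p.i. replicate 3 (adjusted p = 0.106) and without any library but 14 d.p.i. replicates 4 and 5 (up to 0.199). Read against the same share, 4 of 43 actin genes were lower (median -0.28), and of 42 sarcomere genes 1 (median 0.13), *ankrd1a*. The call of *ankrd1a* was lost without any library but 14 d.p.i. replicates 1 and 4 (adjusted p up to 0.163). Neither the ribosomal protein list (94 genes, of which 84 are ribosomal proteins and the rest kinases with symbols that begin alike, median 0.24), the 25 fatty acid oxidation genes (0.07), the 33 Wnt genes (-0.09), the 23 sterol genes (-0.21), the 11 complement genes (1.44) nor the 6 genes of the MHC class II list (0.94) had a called member with edgeR. At an unadjusted p under 0.05 the ribosomal protein list had 16 higher and 3 lower members, fatty acid oxidation 2 and 1, Wnt 2 and 3, sterol 0 and 3, complement 5 and 1, and MHC class II 2 and 0, and DESeq2 called 8 higher and 2 lower, 1 and 1, 2 and 0, 0 and 0, 2 and 0, and 0 and 0 of them.

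To see where these changes lay, the 34542 cells were clustered and the clusters were named from marker genes. The 26 clusters gave 11 named classes, and 8 clusters with 7617 cells stayed unnamed. Unnamed cells made up 11.99% to 16.4% of the cells in 14 d.p.i. replicates 1 to 5 and 47.6% in replicate 6. At 3 d.p.i. they made up 19.5%, 37.2% and 50.3% in replicates 1, 2 and 3. The largest unnamed clusters, 3 and 7, scored highest for erythroid markers. Shares of named cells leave all these cells out, and the effect of this on the shares, above all the erythroid one, was not tested. Names were rebuilt from markers and doublets were not removed. The share of named cells per class did not pass the test in any class. Erythroid-like cells made up 10.1% ± 8.33 at 14 d.p.i., against 26.8% ± 20.4 at 3 d.p.i. (SD, n = 6 and 3, exact permutation p = 0.0952, adjusted 0.349). B lymphocyte-like cells made up 0.714% ± 0.774 at 14 d.p.i., against 3.46% ± 3.48 at 3 d.p.i. (exact permutation p = 0.0476, adjusted 0.349), and mural-like cells 1.26% ± 0.778 at 14 d.p.i., against 0.377% ± 0.397 at 3 d.p.i. (p = 0.0952, adjusted 0.349). With 84 splits the smallest possible p was 0.0119. Of the 4 classes tested gene by gene, cardiomyocyte-like cells made up 22.6% ± 5.78 at 14 d.p.i., against 20.6% ± 8.80 at 3 d.p.i. The share of endothelial-like cells was 35.4% ± 9.54 at 14 d.p.i., against 27.8% ± 14.0 at 3 d.p.i., and that of epicardial-like cells 11.7% ± 3.72 at 14 d.p.i., against 7.66% ± 2.097 at 3 d.p.i. By UMIs, which set the weight of a class in the whole-ventricle sums, the epicardial-like order differed. These cells held 8.56% to 19.25% of the UMIs at 14 d.p.i. and 13.9%, 31.2% and 19.26% in 3 d.p.i. replicates 1, 2 and 3. The part of this in the whole-ventricle changes was not tested. Macrophage-like cells made up 4.89% ± 3.04 at 14 d.p.i., against 5.11% ± 3.39 at 3 d.p.i.

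The epicardial-like cells had the most called genes of the 4 classes. Of 11798 genes tested 2207 (18.7%) were lower at 14 d.p.i. and 2173 (18.4%) were higher. The class comprised 2468 cells at 14 d.p.i., against 495 at 3 d.p.i., in different clusters. At 14 d.p.i. 99.2% of the class was in cluster 6, and at 3 d.p.i. 91.5% was in cluster 16, whose leading genes were *col11a1a*, *fn1a*, *tnc* and *col12a1b*. The differences of cluster-defining genes within the class are therefore descriptions. The median cell had 4512.5 UMIs at 14 d.p.i., against 25595 at 3 d.p.i. The sum of the 8 epicardial markers was 4628 to 8240 CPM at 14 d.p.i. and 1676 to 2828 CPM at 3 d.p.i., and that of cardiomyocyte markers was 157 to 2251 CPM at 14 d.p.i. and 73.7 to 239 CPM at 3 d.p.i. Endothelial markers summed to 67.1 to 296 CPM in the class at 14 d.p.i. and 45.8 to 64.1 CPM at 3 d.p.i., and mural markers to 212 to 557 CPM at 14 d.p.i. and 127 to 159.6 CPM at 3 d.p.i., both with the groups apart. Single libraries mattered less here, since the counts stayed between 1441 and 2349 lower and between 1081 and 2240 higher genes when 1 was left out, lowest without 3 d.p.i. replicate 2, with 1606 and 1269 without replicate 3, and 59 of the 62 called genes considered by name kept the call each time. Without both erythroid-rich libraries 1366 genes were higher.

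Division genes fell in epicardial-like cells. Of 34 cell cycle genes 32 were lower at 14 d.p.i. and none was higher, against 18.7% of all genes lower, with a median log2 change of -3.87, and 31 or 32 were lower whichever library was left out. The mitotic kinase gene *plk1* had 0 to 1.26 CPM of the UMIs of the class at 14 d.p.i., against 24.7, 15.9 and 24.3 CPM at 3 d.p.i. (log2 change -4.89 ± 0.43, edgeR adjusted p = 0.000105). *pcna* had 2.90 to 24.9 CPM at 14 d.p.i. and 139, 129 and 182 CPM at 3 d.p.i. (-3.14 ± 0.33). For the proliferation marker gene *mki67* the values were 0 to 6.08 CPM at 14 d.p.i. (median 0.401) and 35.7, 19.6 and 30.0 CPM at 3 d.p.i. (-3.85 ± 0.71). All 14 d.p.i. samples lay below all 3 d.p.i. samples in these 3 genes. Replicate 4 was the highest 14 d.p.i. sample in 26 of the 34 genes, and its value of 11.103 CPM for *cdk1* stood against 2.09 CPM in the next sample.

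Genes of the secretory and degradation machinery fell in the class too. Of 30 genes of the ER chaperone list 23 were lower and 1 higher (median -1.59), and of 53 proteasome genes 46 were lower and none higher (median -1.50). Of all genes 18.7% were lower and 18.4% higher. The co-chaperone gene *dnajb11* had 5.65 to 10.9 CPM at 14 d.p.i. and 39.3, 66.1 and 49.1 CPM at 3 d.p.i. (log2 change -2.62 ± 0.25, edgeR adjusted p = 0.000122). The main ER chaperone gene *hspa5* had 5.80 to 77.5 CPM at 14 d.p.i. and 231, 358 and 365 CPM at 3 d.p.i. (-2.61 ± 0.44). The summed proteasome level was 1393 to 2571 CPM at 14 d.p.i. and 4756 to 6601 CPM at 3 d.p.i., with the groups apart, and the counts of lower members stayed between 16 and 25 for the chaperones and between 40 and 46 for the proteasome without single libraries.

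Energy metabolism genes were lower in the class. Of 24 glycolysis genes 11 were lower and 2 higher (median -0.75), of 84 respiratory chain genes 64 were lower and 3 higher (-1.06), and of 22 fatty acid oxidation genes 15 were lower and 1 higher (-1.10). These counts are read against 18.7% of all genes lower and 18.4% higher. The pyruvate kinase gene *pkma* had 17 to 33.4 CPM at 14 d.p.i. and 160.04, 192 and 133 CPM at 3 d.p.i. (log2 change -2.63 ± 0.25, edgeR adjusted p = 0.000122), and the lactate dehydrogenase gene *ldha* had 12 to 47.1 CPM at 14 d.p.i. and 145, 155 and 122 CPM at 3 d.p.i. (-2.26 ± 0.34). Both were separate between the groups. The summed glycolysis level was 708 to 1509 CPM at 14 d.p.i. and 2906 to 3742 CPM at 3 d.p.i., and the summed respiratory chain level 7675 to 12006 CPM at 14 d.p.i. and 16848 to 21235 CPM at 3 d.p.i. The serine synthesis gene *phgdh* was again almost lost, with 0 to 1.89 CPM at 14 d.p.i. and 33.4, 29.7 and 26.0 CPM at 3 d.p.i. (-4.72 ± 0.41). Of 83 ribosomal protein genes 20 were higher and 1 lower (median 0.55), against 18.4% of all genes higher.

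Of 16 cytokine and inflammation genes in the class 3 were lower and 1, *tgfb2* (log2 change 1.05 ± 0.25), was higher (median -0.29), a share near the 18.7% of all genes that were lower. The neutrophil attractant *cxcl8a*, not called in the whole ventricle, had 0 to 18.0 CPM at 14 d.p.i. (median 6.73), against 70.7, 85.1 and 118 CPM at 3 d.p.i. (log2 change -3.31 ± 0.46, edgeR adjusted p = 0.000584). *ptgs2a* (-2.89 ± 0.46), *socs3b* (-2.04 ± 0.36), *aldh1a2* (-1.50 ± 0.33) and *wt1b* (-1.58 ± 0.32), the last a marker used to name the class, fell without overlap. The actin gene *actb1* (-2.46 ± 0.38) and the keratin gene *krt18a.1* (-2.44 ± 0.29), parts of the cytoskeleton, also fell, and 20 of 38 actin genes were lower with 1 higher.

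**Figure D4:**
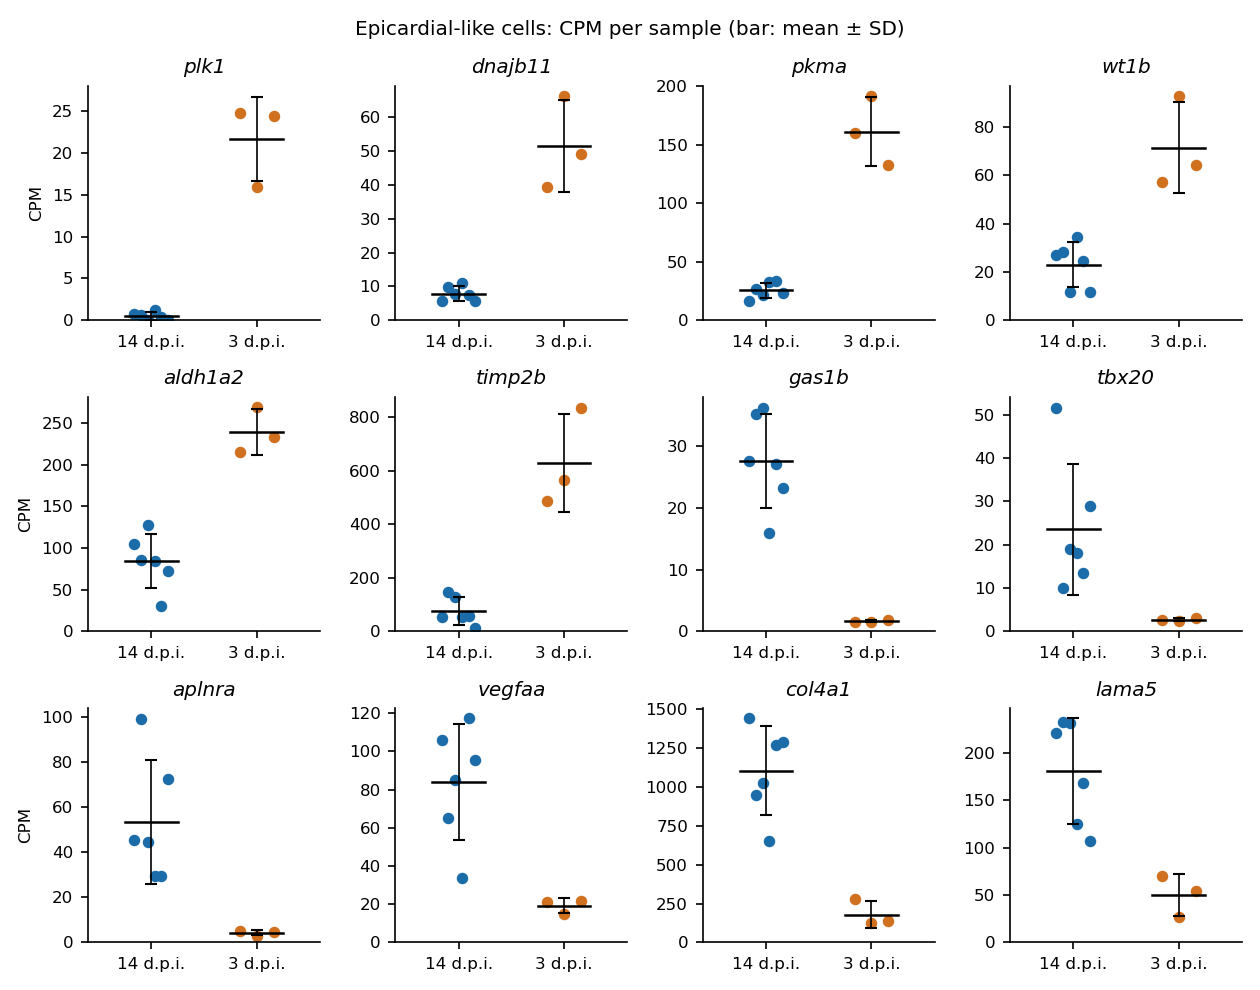
CPM of 12 genes in the summed UMIs of epicardial-like cells, with 14 d.p.i. samples left of 3 d.p.i. samples, 1 point per sample and bars for mean ± SD (n = 6 and 3). *plk1* lies at 0 to 1.26 CPM at 14 d.p.i., below all 3 d.p.i. samples, while *gas1b* lies at 15.9 to 36.3 CPM, above all of them.

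The higher genes of the epicardial-like cells included chains of the basement membrane. They moved together with the summed endothelial and mural markers of the class given above, whose part in this was not tested. The collagen IV genes *col4a1* and *col4a2* had 652 to 1439.9 and 171 to 549 CPM at 14 d.p.i. The 3 d.p.i. values were 278, 123 and 136 CPM for *col4a1* and 40.6, 19.7 and 18.4 CPM for *col4a2*. The log2 changes were 2.63 ± 0.36 and 3.51 ± 0.46, and those of *col18a1b* and the laminin chain gene *lama5* were 3.10 ± 0.35 and 1.86 ± 0.37, all with the groups apart. Of 20 collagen genes 6 were higher and 1, *col11a1a*, was lower (-3.22 ± 0.81), against 18.4% of all genes higher and 18.7% lower, a call lost without 3 d.p.i. replicate 2 (adjusted p = 0.0805). Of 27 matricellular and matrix genes 9 were higher and 3 lower (median 0.98), read against the same shares, with the proteoglycan gene *vcanb* higher (2.00 ± 0.33) and *fn1a* (-2.21 ± 0.46) and *has1* (-2.85 ± 0.57) lower. This list holds *hapln1a* and *dcn*, markers that named the class, so its count is in part a description. The inhibitors moved in opposite directions, with *timp4.3* at 13.4 to 200 CPM at 14 d.p.i. and 4.71, 0.263 and 1.91 CPM at 3 d.p.i. (5.24 ± 1.07), and *timp2b* at 11.6 to 149 CPM at 14 d.p.i. and 488, 565 and 835 CPM at 3 d.p.i. (-3.02 ± 0.52).

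Of 44 growth factor and signalling genes 18 were higher and 4 lower (median 0.99), against 18.4% of all genes higher. Among the 44 was *pdgfra*, a marker that named the class. The apelin receptor gene *aplnra* had 29.4 to 99.1 CPM at 14 d.p.i. (median 44.8) and 5.16, 3.02 and 4.53 CPM at 3 d.p.i. (log2 change 3.64 ± 0.47, edgeR adjusted p = 0.000376). The vessel growth factor gene *vegfaa* had 33.9 to 118 CPM at 14 d.p.i. and 21.3, 14.7 and 21.9 CPM at 3 d.p.i. (2.11 ± 0.38), and *bmp6* had 12 to 57.9 CPM at 14 d.p.i. and 3.37, 2.5 and 4.05 CPM at 3 d.p.i. (3.53 ± 0.59). These 3 had no overlap, nor had *nrp1a* (2.102 ± 0.353), a receptor for vessel growth and guidance factors, *notch3* (2.02 ± 0.36), *cntf* (1.65 ± 0.38) and *wnt5b* (2.35 ± 0.49). The endothelial genes *kdrl* (1.93 ± 0.70) and *sox18* (1.95 ± 0.52) and the mural gene *pdgfrb* (1.16 ± 0.34) were also called higher in the class, beside the higher endothelial and mural marker sums. For *nrg1* the log2 change was 1.203 ± 0.339 with overlapping groups, and its call was lost without 3 d.p.i. replicate 1 or 2 (adjusted p up to 0.0933).

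Of 27 epicardial and mesenchymal genes 4 were higher in the class and 6 lower (median 0.22), against 18.4% of all genes higher and 18.7% lower, and *wt1b*, given above, was among the lower ones. The genes *wt1b* and *tbx18*, like *tcf21*, *wt1a* and *pdgfra* of the same list, were among the epicardial markers that named the clusters of the class. Their changes within it are therefore descriptions. The T-box factor genes *tbx18*, an epicardial marker, and *tbx20* had 557 to 989 and 10.1 to 51.6 CPM at 14 d.p.i., against 348, 216 and 268 CPM for *tbx18* and 2.69, 2.36 and 3.10 CPM for *tbx20* at 3 d.p.i. Their log2 changes were 1.57 ± 0.26 and 3.04 ± 0.52, and that of *gata4* was 2.45 ± 0.44. *gas1b*, of a family known for growth arrest in mammals, had 15.9 to 36.3 CPM at 14 d.p.i. and 1.57, 1.58 and 1.91 CPM at 3 d.p.i. (4.02 ± 0.35, edgeR adjusted p = 0.000105), and all 4 were separate between the groups. Of 8 complement genes 4 were higher and none lower (median 1.90), against 18.4% of all genes higher. The summed complement level was 2635 to 7104 CPM at 14 d.p.i. and 1019 to 2556 CPM at 3 d.p.i. The complement list holds *c6*, a marker that named the class, and *c4b*, a leading gene of cluster 6. Its count and sum are therefore descriptions too. Of 28 sarcomere genes 8 were higher, against 18.4% of all genes, among them *cmlc1* (3.00 ± 0.66) and *myl7* (2.13 ± 0.66), beside the higher summed cardiomyocyte markers given above, whose part in this was not tested. The call of *myl7* was lost without any 1 of the 3 d.p.i. libraries (adjusted p up to 0.101).

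Endothelial-like cells had fewer calls, and these depended on single libraries. The class leaves out cluster 13 (634 cells), which scored for both mural and endothelial markers and stayed unnamed. Its leading genes included *esm1*, *plvapa*, *plvapb* and *cldn5b*, members of the coronary and lymphatic endothelial list. The values of the class therefore do not cover those cells. Of 13723 genes tested 271 (1.97%) were lower at 14 d.p.i. and 94 (0.685%) higher. The class had 7369 cells at 14 d.p.i., against 1922 at 3 d.p.i., with cluster 4 holding 18.8% of them at 14 d.p.i., against 78.6% at 3 d.p.i., and the median cell had 3739 UMIs at 14 d.p.i., against 6599 at 3 d.p.i. Clusters 9 and 11 held 19.7% and 16.5% of the class at 14 d.p.i., against 0.312% and 3.02% at 3 d.p.i. Of the cells of these clusters, 51.9% and 79.5% came from a single library. Of 52 proteasome genes 24 were lower (median -1.04), and of 34 cell cycle genes 8 (median -1.78), with none higher in either list, and both sums were separate between the groups, at 1739 to 2494 CPM at 14 d.p.i. and 2942 to 4322 CPM at 3 d.p.i. for the proteasome. Without any 1 of 14 d.p.i. replicates 2, 3 and 6 and 3 d.p.i. replicates 1 and 3 neither list had a lower member, and without 14 d.p.i. replicate 1 there were 4 and 2, while the medians lay between -1.02 and -0.90 for the proteasome and between -1.92 and -1.63 for the cell cycle in these 6 fits. At the finer clustering (resolution 2.0) neither list had a lower member and the medians were -0.65 and -1.09, the latter over 17 cell cycle genes. A cluster of 360 cells with *cenpf* and *aspm* among its leading genes was unnamed there, so the class held other cells. In 3 d.p.i. replicate 3 the class had 9.70% of the UMIs at this resolution, against 23.4% at resolution 1.0. Cardiomyocyte markers summed to 1096 to 2836 CPM in the class at 14 d.p.i. and 302 to 1402 CPM at 3 d.p.i.

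The natriuretic peptide gene *nppb*, a marker of stressed heart tissue, had 1.30 to 11.099 CPM in endothelial-like cells at 14 d.p.i. (median 4.18), against 55.9, 102 and 261 CPM at 3 d.p.i. (log2 change -4.58 ± 0.57, edgeR adjusted p = 0.0210). *ptgs2a* had 11 to 34.6 CPM at 14 d.p.i. and 40.7, 102 and 252 CPM at 3 d.p.i. (-2.57 ± 0.50), and *aldh1a2* had 94.4 to 236 CPM at 14 d.p.i. and 646, 239 and 692 CPM at 3 d.p.i. (-1.66 ± 0.35). In all 3 the groups lay apart, *aldh1a2* narrowly. *adamtsl7* and *lepb* were nearly silent at 14 d.p.i., with 1 and 2 UMIs in all, and had 629 and 509 UMIs at 3 d.p.i. Among the higher genes were the lipase gene *lpl*, with 567 to 1859 CPM at 14 d.p.i. and 192, 222 and 271 CPM at 3 d.p.i. (1.86 ± 0.43), *spint2* (2.48 ± 0.50) and *arglu1b* (1.62 ± 0.25). *lpl* was also a leading gene of cluster 11. All 17 named calls of the class were lost without 14 d.p.i. replicate 2, 3 or 6 or 3 d.p.i. replicate 3, with adjusted p up to 0.0883 for *nppb*, *adamtsl7* and *lepb*, 0.251 for *aldh1a2* and 0.240 for *lpl*, and no gene of the class was called at the finer clustering.

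In macrophage-like cells both invariant chain genes of antigen presentation were higher and 2 lysosomal cathepsin genes lower at 14 d.p.i. Of 6338 genes tested 152 (2.4%) were lower and 179 (2.82%) higher, in 5 samples at 14 d.p.i., since replicate 6 had 14 cells of the class, and 3 at 3 d.p.i. The class was 1 cluster with 1012 cells at 14 d.p.i., against 303 at 3 d.p.i. The invariant chain gene *cd74a*, needed for MHC class II, had 12231 to 18631 CPM at 14 d.p.i. (median 17186) and 5847, 2475 and 2627 CPM at 3 d.p.i. (log2 change 2.17 ± 0.32, edgeR adjusted p = 0.0229), and *cd74b* had 3646 to 6768 CPM at 14 d.p.i. and 2308, 1389 and 1132 CPM at 3 d.p.i. (1.75 ± 0.28). The cathepsin gene *ctsla* had 157 to 548 CPM at 14 d.p.i. and 1446, 1581 and 1874 CPM at 3 d.p.i. (-2.37 ± 0.39), and *ctsk* was lower as well (-1.61 ± 0.26). These 4 genes had separate groups. Of the 6 genes of the MHC class II list 3 were higher and none lower (median 1.33), namely both invariant chain genes and *b2ml*, a gene of beta-2-microglobulin, which is the light chain of MHC class I, and of 21 lysosome genes 6 were lower and none higher (median -0.79).

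Division genes were lower in macrophage-like cells too. *pcna* had 27.1 to 44.8 CPM at 14 d.p.i. and 137, 172 and 197 CPM at 3 d.p.i. (log2 change -2.17 ± 0.24, edgeR adjusted p = 0.00649), and *rrm2* had 1.47 to 11.4 CPM at 14 d.p.i. and 61.9, 114 and 168 CPM at 3 d.p.i. (-4.71 ± 0.51). Both had separate groups and were the only called genes of the 21 named that kept the call without any single library. The other 19 lost it without 14 d.p.i. replicate 3 or 3 d.p.i. replicate 3, with adjusted p up to 0.114 for *cd74a*, *cd74b*, *ctsk* and *ctsla*. Of 23 cell cycle genes 6 were lower (median -1.39) and of 50 proteasome genes 16 (median -0.89), against 2.4% of all genes lower. These counts became 2 and 0 without 14 d.p.i. replicate 3 or 3 d.p.i. replicate 2 or 3, 4 and 8 without 14 d.p.i. replicate 1, and 3 and 5 without 14 d.p.i. replicate 2. Of 83 ribosomal protein genes 42 were higher and none lower (median 0.53), against 2.82% of all genes higher, and 70 lay apart, against 9.44% of all genes. Over all genes, only 1 was called higher in the class without 14 d.p.i. replicate 3, 3 without 3 d.p.i. replicate 2 and 0 without 3 d.p.i. replicate 3. None of these was a ribosomal protein gene.

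The clotting factor subunit gene *f13a1a.1* was near the detection limit in macrophage-like cells of 3 d.p.i., with 5398 UMIs at 14 d.p.i., against 3 at 3 d.p.i. Per summed UMI, without TMM scaling, this was a ratio of 857 (exact 95% interval 293 to 4155). The level of *f13a1a.1*, 63.2 to 2920.4 CPM at 14 d.p.i., was very uneven, and its call was lost without any of the 8 libraries but 14 d.p.i. replicates 1 and 4 (adjusted p up to 0.174). The tetraspanin gene *cd9b* was lower, with 11 to 129 CPM at 14 d.p.i. and 218, 1829 and 1102 CPM at 3 d.p.i. (log2 change -3.79 ± 0.78), and lost its call without 14 d.p.i. replicate 1, 2 or 3 or 3 d.p.i. replicate 2 or 3 (up to 0.141). Muscle genes such as *ttn.2* (4.63 ± 0.93) and *ckma* (4.24 ± 0.96) were higher in the class, where cardiomyocyte markers summed to 799 to 8460 CPM at 14 d.p.i. and 184 to 871 CPM at 3 d.p.i., and the part of these in the difference was not tested.

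Cardiomyocyte-like cells gave almost no calls. Of 12263 genes tested none was higher and 1 (0.00815%) was lower at 14 d.p.i. with edgeR, while 1361 had an unadjusted p under 0.05 and DESeq2 called 106 higher and 87 lower. The 1 gene, *zgc:195023*, was singled out after its values were seen, and had 0 to 0.438 CPM at 14 d.p.i. and 13.9, 14.8 and 50.9 CPM in the 3 d.p.i. samples in ascending order (log2 change -6.96 ± 0.64, edgeR adjusted p = 0.00399). The proteasome genes had a median log2 change of -0.62 over 53 genes. No member was called by edgeR, with 34 lower at an unadjusted p under 0.05 and 10 lower with DESeq2, and 22 lay apart below, against 3.49% of all genes, and the summed level was 1409 to 1954 CPM at 14 d.p.i. and 2239 to 3004 CPM at 3 d.p.i. without overlap. The 41 sarcomere genes had a median of 0.07, with 10 higher and 3 lower at an unadjusted p under 0.05. The 7 cardiomyocyte markers, which also named the class, had separate groups. They summed to 80626 to 115708 CPM at 14 d.p.i. and 61528 to 76231 CPM at 3 d.p.i. Cluster 5 held 44.3% of the class at 14 d.p.i., against 25.8% at 3 d.p.i. The median cell had 5918 UMIs at 14 d.p.i., against 11217 at 3 d.p.i. The 22 cell cycle genes had a median of -1.29 with overlapping sums (-0.72 without 3 d.p.i. replicate 3), and the 30 genes of the ER chaperone list one of -0.54.

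**Figure D5:**
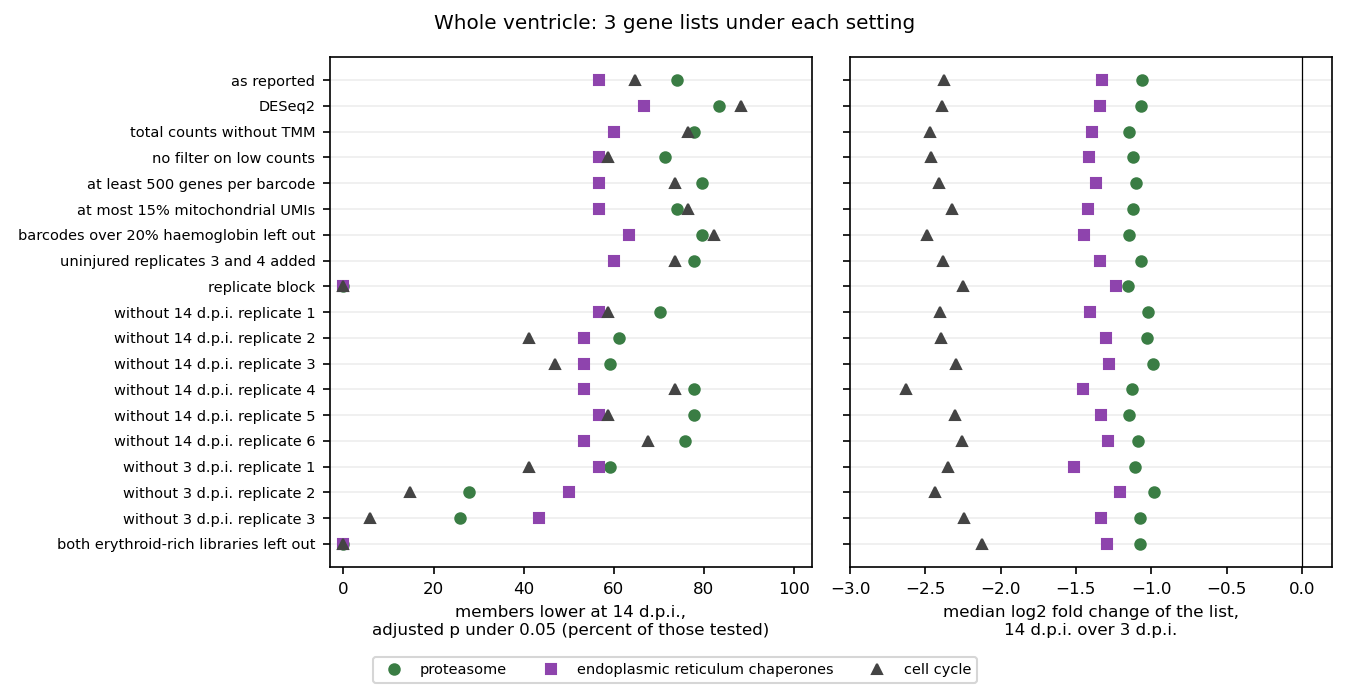
Share of the ER chaperone, proteasome and cell cycle lists called lower at 14 d.p.i. in the whole ventricle, and their median log2 changes, under each of 19 settings. The medians stay negative throughout, between -2.63 and -2.12 for the cell cycle, while the number of called members ranges from 0 to 30 of that list.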

How the data were processed

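Single-cell RNA sequencing of ventricles gave 9 samples, 6 of the 14 d.p.i. group besides 3 of the 3 d.p.i. group. What was deposited are unnormalized UMI counts for every gene in every barcode, which the authors made with Cell Ranger (5.0.0 in the file headers) against GRCz11 and the annotation of version 4.3.2. Of 36351 rows, 29 mitochondrial ones (mt- and NC_002333) were left out. Rows with the same symbol stayed separate. Counts were summed per sample over barcodes with at least 200 genes and at most 40% of UMIs in mt- symbols. They were tested with edgeR 4.0.16 in R 4.3.3 (quasi-likelihood, TMM, default filter on low counts) with Benjamini-Hochberg adjustment over all genes tested and a threshold of 0.05. The SE of a log2 change was derived as its absolute value over the square root of the F statistic, and is therefore approximate. CPM are counts per 1000000 of the summed UMIs used, scaled by the TMM factor of each sample.

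Cells were clustered with scanpy 1.11.5 and leidenalg 0.10.2 on 2000 variable genes, 30 components and 20 neighbours at a resolution of 1.0, without integration and with the 1003 genes of the lists kept out, except for cell type markers. Class sums needed at least 20 cells per sample. Shares of cells were compared by exact permutation tests, two-sided.

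The genes considered by name were those with the smallest adjusted p and the largest folds among called genes with separate groups, up to 4 members of each of the 35 lists per direction, and genes that the study names. In a class the 5 genes per direction with the smallest adjusted p were added. Genes named from a list whose count is not given do not stand for that list. The comparison, its lists and its rules were chosen with earlier results of these data known. Labels do not say whether replicates came from separate fish, so p-values measure the spread between these samples. Alternatives were DESeq2 1.42.0, total-count scaling, no filter on low counts, at least 500 genes, at most 15% mitochondrial UMIs, haemoglobin-rich barcodes (over 20%) left out, uninjured samples added, a resolution of 2.0, a replicate block and each replicate left out. Leaving out both erythroid-rich libraries was chosen after seeing the data. Same-numbered samples did not deviate together (correlations of same-numbered deviations of -0.11, 0.00 and -0.07), which cannot show whether they shared a preparation. The scripts were tested on simulated data. A called gene that is withheld from this text is not reported here.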

Additional observations from a re-analysis of the deposited data

Results flagged for a closer look

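Of 237 values tested among the 14 d.p.i. samples, 22 had 1 sample far from the other 5 (Dixon's criterion). That sample was the highest each time, replicate 4 in 8 of them, replicate 1 in 6, replicate 5 in 4 and replicates 3 and 6 in 2 each. Chance meets the criterion in about 1 of 20 only for independent, normally distributed values. CPM and shares cannot be negative and many come from the same libraries, so the count cannot be read against that rate.

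In the whole ventricle, replicate 4 stood apart with 219 CPM for *isg15* (next sample 53.1 CPM), 111 CPM for *f13a1a.1* (39.6 CPM), 200.2 CPM for *cox7a2a* (111 CPM), 28.9 CPM for *psmc1a* (22.3 CPM) and 0.707 CPM for *trip13* (0.240 CPM). Replicate 1 had 4416 CPM of the granulocyte gene *lyz* (662 CPM) and 215 CPM of *col4a2* (112 CPM). Replicate 5 had 333 CPM of *cxcl12a* (118 CPM) and 1.71 CPM of *il11a* (0.598 CPM). Replicate 6 had 13.8 CPM of *ptgs2a* (8.26 CPM), and replicate 3 had 38.1 CPM of *socs3b* (25.2 CPM).

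In endothelial-like cells, replicate 4 had 0.0943 CPM of *adamtsl7* (0 in the others), replicate 1 had 0.652 CPM of *lepb* (0.0943 CPM) and replicate 5 had 1859 CPM of *lpl* (746 CPM). In epicardial-like cells, replicate 4 had 11.103 CPM of *cdk1* (2.09 CPM) and 6.08 CPM of *mki67* (0.707 CPM), replicate 3 had 49.4 CPM of *socs3b* (29.4 CPM) and replicate 6 had 5.80 CPM of *tomm40l* (2.93 CPM). By share of named cells, replicate 1 was apart in T and NK lymphocyte-like cells (4.44%, next 1.51%), granulocyte-like cells (11.5%, next 2.89%) and macrophage-like cells (10.6%, next 4.70%), and replicate 5 in keratinocyte-like cells (2.43%, next 0%).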

How the results depend on the processing

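Counts of lower and higher genes in the whole ventricle (783 and 254) were 1435 and 1172 with DESeq2, 1015 and 142 with total-count scaling, 733 and 92 without the filter on low counts, 3 and 10 with the replicate block, 123 to 933 and 5 to 309 when 1 library was left out, and 1 and 1 without both erythroid-rich libraries. In epicardial-like cells (2207 and 2173) they were 1441 to 2349 and 1081 to 2240 when 1 library was left out, and 1366 genes were higher without both erythroid-rich libraries. In endothelial-like cells (271 and 94) they were 730 and 614 with DESeq2, 0 and 0 at resolution 2.0, 0 to 557 and 0 to 251 when 1 library was left out, and 0 and 0 without both erythroid-rich libraries, and 266 genes were higher with the replicate block. In macrophage-like cells (152 and 179) they were 229 and 309 with DESeq2, 352 and 560 without the filter, 80 and 96 with the replicate block, 2 to 162 and 0 to 205 when 1 library was left out, and 3 and 0 without 3 d.p.i. replicate 3 and 14 d.p.i. replicate 6. In cardiomyocyte-like cells (1 and 0) they were 87 and 106 with DESeq2, 202 and 101 with the replicate block, 1 to 2 and 0 to 0 when 1 library was left out, and 2 genes were lower without the filter. The cause of these shifts was not tested. Same-numbered samples did not deviate together, but this cannot show whether they shared a preparation. Under the block, 14 d.p.i. replicates 4 to 6 have no 3 d.p.i. sample of the same number, so they do not enter its estimate of the change.

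*postnb* turned to a negative log2 change without the filter (-7.65e-05), at a mitochondrial limit of 15% (-0.0852), without haemoglobin-rich barcodes (-0.0354), without both erythroid-rich libraries (-0.0151) and ranged between -0.41 and 1.52 without single libraries, with negative values without 14 d.p.i. replicate 1 (-0.29) or 2 (-0.23) and without 3 d.p.i. replicate 1 or 3 (-0.24), and *acta2* turned under the replicate block (-0.52). The difference in macrophage-like share was -0.219 percentage points as reported and 0.0131 at resolution 2.0. All 111 called genes considered by name in the whole ventricle lost their call under the block, and 110 of them without both erythroid-rich libraries.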
